A study of Arabidopsis thaliana with 12 samples.

Results

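Small heat shock proteins are low-mass chaperones that form oligomers, bind unfolding proteins and hold them in a state from which the larger ATP-dependent chaperones can refold them. In plants they form classes that differ by sequence and by compartment, with several in the cytosol and others in plastids, mitochondria, the endoplasmic reticulum and peroxisomes. Many of their genes are barely transcribed in unstressed tissue and are switched on by heat shock factors when plants are heated. Of 10 small heat shock protein loci of Arabidopsis thaliana that were listed, 2 had a probe set of their own in the platform annotation, AT2G29500 and AT1G53540. They stand among 13286 genes with such a probe set in the whole table. Both encode class I proteins of the cytosol. Another 2 loci, AT1G59860 and AT1G07400, share 1 probe set, which was not used because its signal cannot be assigned to either gene. The annotation table used here lists no probe set for the other 6, which are HSP17.4 (AT3G46230), HSP17.6II (AT5G12020), HSP17.6A (AT5G12030), HSP21 (AT4G27670), HSP23.6-MITO (AT4G25200) and HSP18.2 (AT5G59720), so they were not analysed here.

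The study compared roots of the wild type (WT) and of the mutant hni9 on 12 Affymetrix arrays. HNI9/IWS1, the protein affected in hni9, acts in the elongation of transcripts by RNA polymerase. Plants were kept at steady state on 10 mM NH4NO3 (high nitrogen) or 0.3 mM KNO3 (low nitrogen), so that both the amount and the form of nitrogen changed. The 4 groups of genotype and supply held 3 biological replicates each, and the sources used here do not say whether these came from separate cultures. The array titles read hni9-1 for number 1, hni9-2 for number 2 and hni9 for number 3. They do not say whether that suffix stands for an allele or for a replicate. If it stands for an allele, the spread between the hni9 arrays of a group mixes allele with replicate. The labels give neither the kind of mutation nor the age of the plants. The loci were chosen by family and selected on the intensity of AT2G29500, which was already known to be higher in hni9 at both supplies when they were listed. Values of the listed genes in hni9 against WT are therefore given as a description with no test. Low against high nitrogen is the comparison that the choice of these loci did not rest on. The loci and the other lists below were still chosen with earlier results of these data known, so the nitrogen tests may not be wholly free of selection.

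AT2G29500 was higher in hni9 than in WT at both supplies, with a wider spread between the hni9 arrays than between the WT arrays. In WT at high nitrogen its intensity, the brightness of the probe set on the authors' linear scale, was 529, 582 and 584 in replicates 1, 2 and 3. In WT at low nitrogen it was 331, 392 and 348. The WT arrays thus lay close together within each supply. In hni9 at high nitrogen it was 1639, 2186 and 1358. In hni9 at low nitrogen it was 1372, 2292 and 899. All 6 hni9 arrays lay above all 6 WT arrays. The group means were 565 ± 30.8 and 357 ± 31.6 (SD, n = 3) in WT at high and low nitrogen, and 1727 ± 421 and 1521 ± 708 in hni9. The mean in hni9 was 3.06 times that in WT at high nitrogen and 4.26 times that at low nitrogen. The lowest hni9 array was still 2.33 times the highest WT array at high nitrogen and 2.29 times at low nitrogen. With both hni9 arrays numbered 2 left out, a choice made after seeing the data, the hni9 means were 1498 and 1136.

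**Figure D1:**
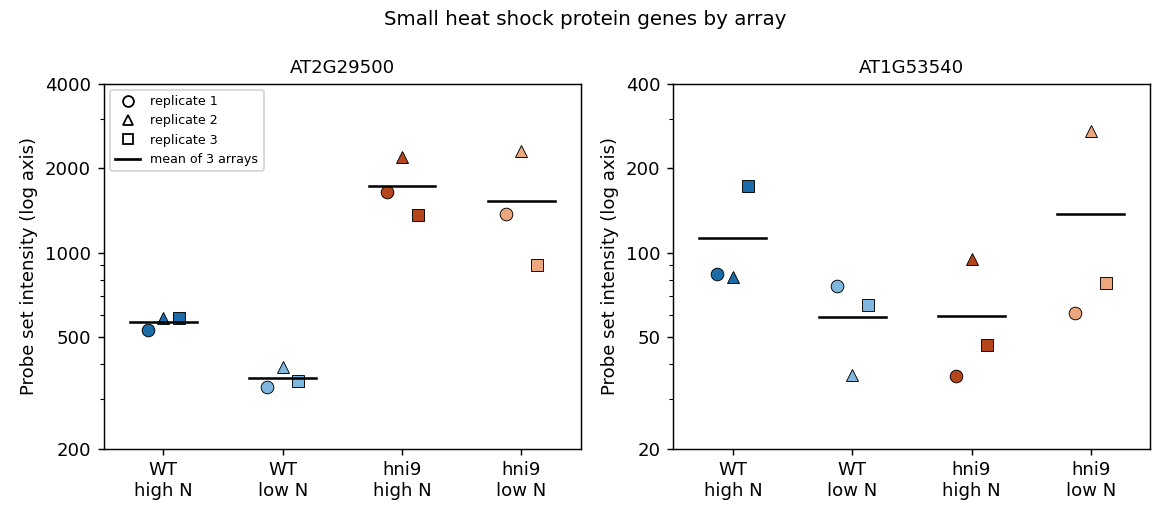
Probe set intensity (log axis) of AT2G29500 and AT1G53540 on each of the 12 arrays, by genotype and nitrogen supply. Points are arrays, with the replicate number as symbol, and bars are means of 3 arrays. The hni9 points of AT2G29500 lie between 899 and 2292, above the WT points at 331 to 584, while the groups of AT1G53540 overlap between the genotypes.

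The nitrogen supply asks a question of AT2G29500 that its choice did not settle. In WT all 3 arrays at low nitrogen lay below the 3 at high nitrogen, and the mean at high nitrogen was 1.58 times that at low nitrogen. On the log2 scale, after 16 had been added to each intensity, the change was -0.64 ± 0.25 (standard error, limma), with a 95% interval of -1.17 to -0.11 for this gene taken alone. It did not pass a false discovery rate of 0.05 over all 22746 probe sets tested (limma, adjusted p = 0.171). In hni9 the arrays of the supplies overlapped, and the change was -0.26 ± 0.25, with an interval of -0.78 to 0.27 (limma, adjusted p = 0.69). Averaged over the genotypes it was -0.45 ± 0.17 (limma, adjusted p = 0.143). The model uses 1 spread for the 4 groups, while the SD of log2 values was 0.08 and 0.12 in WT at high and low nitrogen and 0.34 and 0.67 in hni9. The call moved with the hni9 arrays at low nitrogen. Without replicate 2 the change in WT kept its size and passed (limma, adjusted p = 0.0377), and the average over genotypes became -0.62 (limma, adjusted p = 0.00634). Without replicate 3 the change in WT had adjusted p = 0.0603 (limma), and without replicate 1 it had 0.196, so neither passed. The genotype difference at high nitrogen less that at low nitrogen was -0.38 ± 0.35, with an interval of -1.13 to 0.36 (limma, adjusted p = 0.77). A difference of the genotype effect between the supplies was thus not detectable with 12 arrays. This comparison is built from the hni9 differences that were known when the loci were listed, so it is not free of that choice.

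AT1G53540 was dim and showed no such order. In WT at high nitrogen its intensity was 83.6, 81.6 and 172, and in WT at low nitrogen it was 75.7, 36.5 and 64.8. In hni9 it was 36.3, 95.1 and 46.8 at high nitrogen and 61.1, 271 and 77.9 at low nitrogen. The value of 271, from hni9 replicate 2 at low nitrogen, was the highest of the 12, and the only one above the median of its array. The 3 WT arrays at low nitrogen lay below the 3 at high nitrogen, and every other pair of groups with a shared genotype or supply overlapped. The change from high to low nitrogen was -0.74 ± 0.48 in WT (limma, adjusted p = 0.479) and 0.84 ± 0.48 in hni9 (limma, adjusted p = 0.434). The hni9 difference was -0.78 ± 0.48 at high nitrogen and 0.81 ± 0.48 at low nitrogen, and the difference between these, -1.58 ± 0.68, did not pass (limma, adjusted p = 0.406). Without hni9 replicate 2 at low nitrogen the value of 0.84 in hni9 was 0.25 and the value of 0.81 at low nitrogen was 0.22. The 95% interval of its nitrogen response in WT ran from -1.77 to 0.28.

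Counted by the test, 0 of the 2 genes passed for nitrogen in WT, where 5.74% of all probe sets did, with 1 at an unadjusted p under 0.05. In hni9 0 of the 2 passed against 5.10% of all probe sets, with 0 at an unadjusted p under 0.05, and in the average over genotypes 0 passed against 8.95%, with 1 unadjusted. The interaction takes the hni9 difference at low nitrogen from the one at high nitrogen. Those differences of AT2G29500 were known when the loci were listed, so its interaction is not free of that choice. Here 0 passed against 0.703%, with 1 unadjusted, AT1G53540. The share of all probe sets with an unadjusted p under 0.05 is not given here, so the unadjusted counts have no background beside them.

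The rest of the family offers a wider view. Another 8 small heat shock protein loci had a probe set each, and 7 of them passed in 0 of the 6 comparisons (limma). With the gene that did pass included, 2 of the 8 had an unadjusted p under 0.05 for nitrogen in WT, 1 in hni9 and 2 in the average. In hni9 against WT there were 1 at high nitrogen and 2 at low nitrogen, and for the interaction 2. No share of all probe sets at that threshold is given to set these counts against. The gene that did pass was AT5G51440, which encodes a mitochondrial member. Its intensity in WT was 531, 477 and 587 at high nitrogen and 1531, 1581 and 1493 at low nitrogen, and in hni9 it was 832, 935 and 847 at high and 1295, 1292 and 1087 at low nitrogen. It rose at low nitrogen by 1.51 ± 0.10 in WT (limma, adjusted p = 7.32e-07) and by 0.48 ± 0.10 in hni9 (limma, adjusted p = 0.0122). The call in hni9 was lost without hni9 replicate 1 at high nitrogen (0.0518) or at low nitrogen (0.0587), with no intensity trend (0.0651) and with replicates 1 and 2 alone (0.0548). In WT its arrays at low nitrogen lay above those at high nitrogen, whereas those of AT2G29500 lay below. In hni9 against WT 1 of the 8 passed at high nitrogen, where 7.67% of all probe sets did, and 0 at low nitrogen, where 2.06% did. The former was again AT5G51440, which rose by 0.70 ± 0.10 at high nitrogen (limma, adjusted p = 0.000817) and had -0.33 ± 0.10 at low nitrogen (limma, adjusted p = 0.135).

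The remaining 7 were ATHSP22.0 (AT4G10250), which encodes a protein of the endoplasmic reticulum, AT5G37670, AT4G21870, AT2G19310, AT5G47600, AT1G52560 and AT1G54050. Most were dim. ATHSP22.0 ranged from 7.18 to 95.8 over the 12 arrays, AT1G52560 from 11.6 to 131, AT5G37670 from 46.8 to 184 and AT5G47600 from 51.9 to 131. AT2G19310 ranged from 148 to 347. The closest to a call was AT1G52560, whose intensity in WT was 131, 93.2 and 108 at high nitrogen and 70.4, 52.6 and 15.5 at low nitrogen. In hni9 it was 33.9, 83.2 and 59 at high and 29.7, 42.2 and 11.6 at low nitrogen. Averaged over genotypes its change at low nitrogen was -0.96 ± 0.30 (limma, adjusted p = 0.0608), and it passed without hni9 replicate 1 at high nitrogen (0.0468), WT replicate 1 at low nitrogen (0.0415) or hni9 replicate 2 at low nitrogen (0.0457), with the replicate block (0.0486) and, at -0.55, with 64 added in place of 16 (0.0403). AT1G54050 was higher on all hni9 arrays than on all WT arrays at low nitrogen, with 107, 83.3 and 147 in WT and 171, 221 and 201 in hni9. Its difference there was 0.76 ± 0.22 (limma, adjusted p = 0.112), whereas at high nitrogen it was -0.01 ± 0.22. AT2G19310 differed in hni9 at high nitrogen by -0.47 ± 0.28 (limma, adjusted p = 0.38), which became -0.85 and passed (0.035) without hni9 replicate 2. The median difference of the 8 in hni9 against WT was -0.24 at high and -0.29 at low nitrogen, beside 0.026 and -0.002 over all probe sets. For nitrogen their median change was -0.05 in WT and 0.11 in hni9, beside -0.024 and -0.051.

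**Figure D2:**
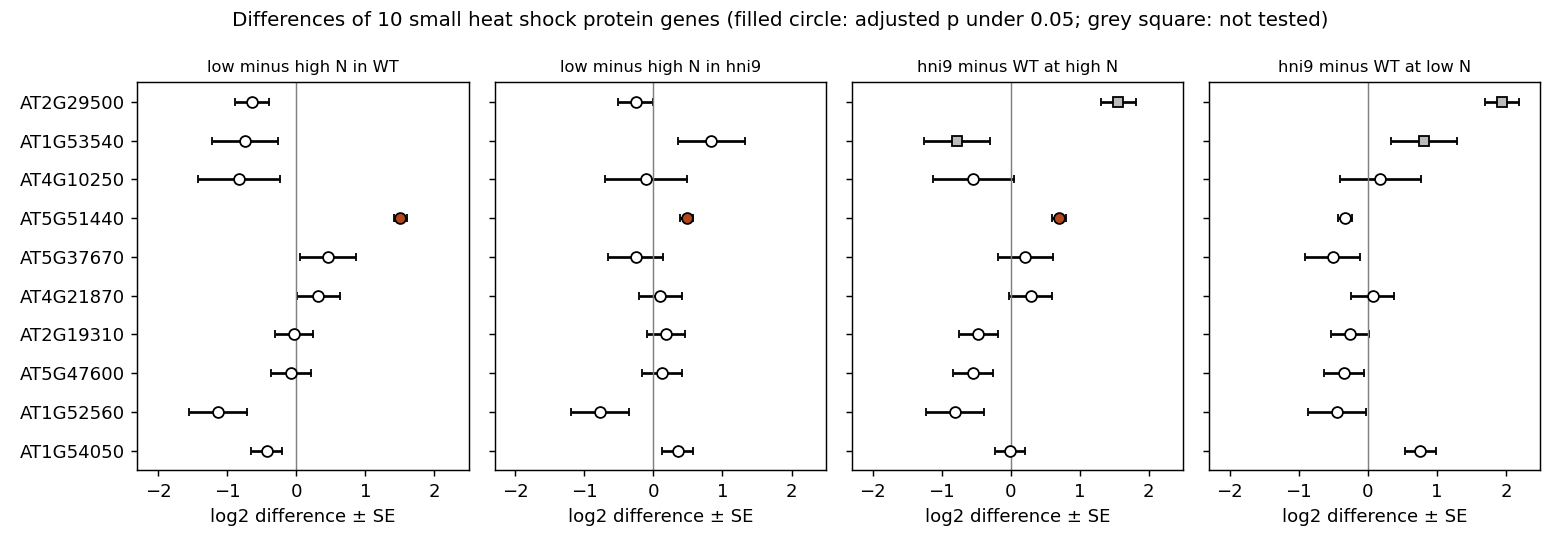
Log2 difference ± standard error (limma, n = 3 arrays per group) of AT2G29500, AT1G53540 and the 8 other small heat shock protein genes in 4 comparisons. Filled circles passed a false discovery rate of 0.05 over all probe sets, and grey squares mark the listed genes in hni9 against WT, which were not tested because the loci were selected on that difference. The squares of AT2G29500 lie at 1.56 and 1.94, and AT5G51440 is filled in 3 of the 4 panels.

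Small heat shock proteins hand their clients to chaperones of the HSP70 and HSP100 classes, and HSP90 with its co-chaperones restrains the heat shock factors. Of 15 HSP70 and BiP loci 2 had a probe set of their own. AT3G09440, a cytosolic HSP70, was 4012, 4617 and 3658 in WT and 7430, 5457 and 6933 in hni9 at high nitrogen, with no overlap. It rose in hni9 there by 0.68 ± 0.16 (limma, adjusted p = 0.0178), a call lost without WT replicate 1 (0.0587) or 3 (0.0796) or hni9 replicate 1 (0.0789) or 3 (0.0656) at high nitrogen, with no intensity trend (0.0769) and with replicates 1 and 2 alone (0.115). At low nitrogen its hni9 difference was -0.19 ± 0.16 (limma, adjusted p = 0.697), and its interaction of 0.87 ± 0.23 did not pass (limma, adjusted p = 0.115), but did without hni9 replicate 2 at high nitrogen (0.0484) or hni9 replicate 3 at low nitrogen (0.0246). In WT its change of 0.47 at low nitrogen (limma, adjusted p = 0.116) passed without that last array (0.0452), as did the change of -0.40 in hni9 (0.215 with all arrays), which was then -0.59 (0.035). The other was Hsp70-2 (AT5G02490), which in WT was 1279, 1206 and 1107 at high and 834, 833 and 675 at low nitrogen. It fell at low nitrogen in WT, with -0.61 ± 0.16 (limma, adjusted p = 0.0392), a call lost without any 1 of the 6 WT arrays (0.0699 to 0.158), with arrays centred on their medians (0.0661), with no intensity trend (0.127) and with replicates 1 and 2 alone (0.0875). In hni9 it was 1708, 1331 and 1069 at high and 1160, 990 and 797 at low nitrogen, which overlap, and its change there was -0.46 ± 0.16 (limma, adjusted p = 0.142); it was -0.63 and passed once the array of hni9 replicate 3 at high nitrogen was left out (0.0467). Averaged over genotypes it fell, with -0.54 ± 0.11 (limma, adjusted p = 0.00719). Of 21 heat shock factors, 7 HSP90 loci and 6 HSP100/ClpB and HSP60 loci, 0 had a probe set of their own in the annotation used here. That annotation names no gene for 8730 of the 22746 probe sets tested, so a locus missing from it may still be on the array. The factors that bind the promoters of these genes were thus not analysed here.

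Of 16 co-chaperones and other heat-induced loci 5 had a probe set of their own, and 0 of them passed in any of the 6 comparisons (limma). At an unadjusted p under 0.05 there were 1 in hni9 against WT at high nitrogen and 3 at low nitrogen. For nitrogen there were 2 in WT, 1 in hni9 and 1 in the average, and for the interaction 0. These counts too have no share of all probe sets beside them. AT5G48570 (ROF2), a peptidyl-prolyl isomerase that binds HSP90, was 351, 377 and 425 in WT and 455, 1313 and 462 in hni9 at high nitrogen. At low nitrogen it was 161, 211 and 200 in WT and 407, 1342 and 391 in hni9. The 2 highest values were those of the hni9 arrays numbered 2, and at each supply all hni9 arrays lay above the WT arrays. Its difference at low nitrogen was 1.58 ± 0.42 (limma, adjusted p = 0.072), which passed without hni9 replicate 2 at high nitrogen (0.0226), with the dimmest 40% left out (0.0313) and with the replicate block (0.0173). With both hni9 arrays numbered 2 left out, a choice made after seeing the data, it was 1.01 (0.00361). At high nitrogen the difference was 0.74 ± 0.42 (limma, adjusted p = 0.346). In WT its change at low nitrogen was -0.96 ± 0.42 (limma, adjusted p = 0.242). Without both hni9 arrays numbered 2 the adjusted p was 0.000786 (limma). Leaving out arrays already seen to stand apart narrows the shared spread, so the values without them are a description. The average over genotypes was -0.54 ± 0.30 (limma, adjusted p = 0.327), and -0.82 without hni9 replicate 2 at low nitrogen, which passed (0.0349).

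Hop3 (AT4G12400), a co-chaperone that links HSP70 to HSP90, was 506, 573 and 546 in WT and 461, 1058 and 445 in hni9 at high nitrogen. At low nitrogen it was 263, 333 and 322 in WT and 572, 1054 and 339 in hni9. The hni9 arrays numbered 2 were the highest at both supplies, while the other hni9 arrays lay below the WT arrays at high nitrogen and above them at low nitrogen, with 339 against a highest WT value of 333. The difference was 0.15 ± 0.34 at high nitrogen (limma, adjusted p = 0.868) and 0.92 ± 0.34 at low nitrogen (limma, adjusted p = 0.226). In WT the low nitrogen arrays lay below the high nitrogen arrays, with a change of -0.80 ± 0.34 (limma, adjusted p = 0.23). The adjusted p was 0.00988 (limma) without both hni9 arrays numbered 2, again a description since they were left out after their values were seen. SGT1A (AT4G23570), another HSP90 co-chaperone, was 310, 339 and 218 in WT and 397, 617 and 411 in hni9 at high nitrogen, with no overlap, and 248, 248 and 211 against 315, 393 and 285 at low nitrogen. Its difference was 0.68 ± 0.20 at high nitrogen (limma, adjusted p = 0.0542), which passed without hni9 replicate 2 at low nitrogen (0.0465), with arrays centred on their medians (0.0365), after quantile normalization (0.0396), with the dimmest 40% left out (0.0268), with the replicate block (0.0143) and, at the threshold, with 1 added in place of 16 (0.05). HSA32 (AT4G21320), which in heated plants prolongs acquired thermotolerance, was 190, 141 and 167 at high and 90.7, 91.4 and 108 at low nitrogen in WT. In hni9 it was 204, 157 and 84.3 at high and 140, 180 and 67.3 at low nitrogen. In WT its arrays at low nitrogen lay below those at high nitrogen, and the change was -0.69 ± 0.34 (limma, adjusted p = 0.319). The fifth gene, AT3G14200, ranged from 179 to 395.

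**Figure D3:**
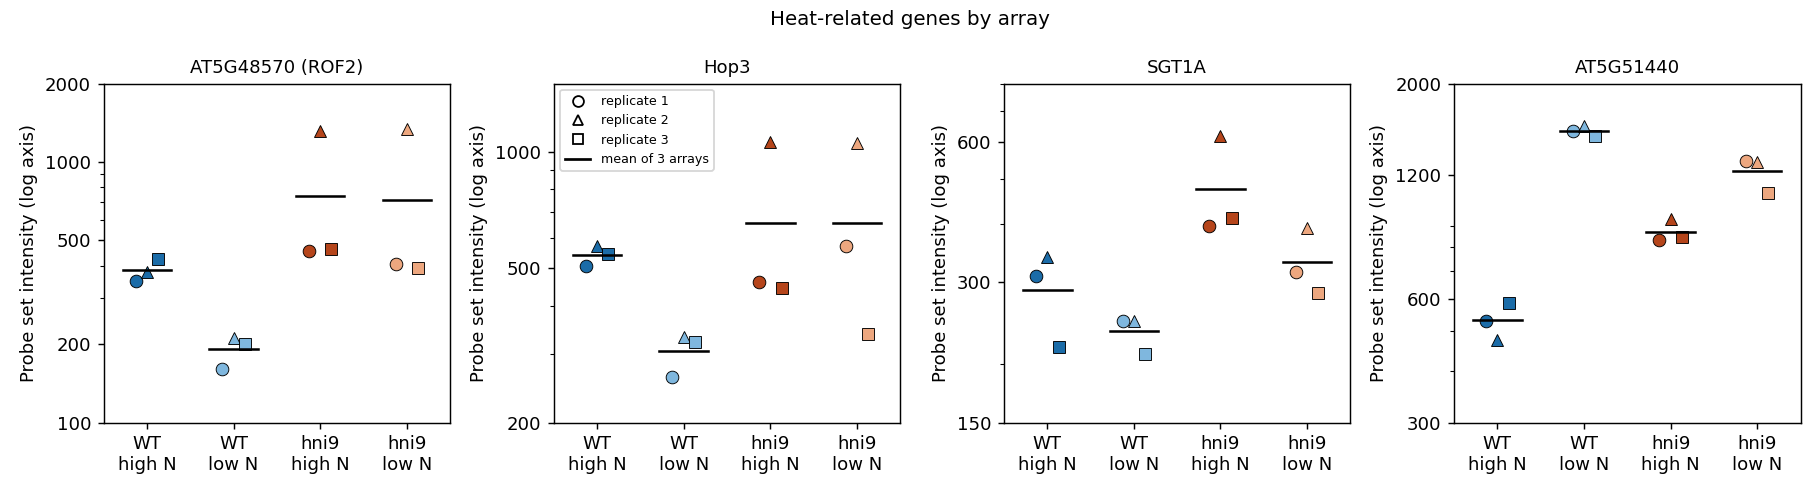
Probe set intensity (log axes, each with its own range) of AT5G48570 (ROF2), Hop3, SGT1A and AT5G51440 on each array, with symbols for replicate numbers and bars for means of 3 arrays. For AT5G48570 and Hop3 the hni9 arrays numbered 2 lie at 1054 to 1342, apart from the other hni9 arrays at 339 to 572, and for AT5G51440 they do not stand apart.

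The spread within hni9 was shared by several of these genes. AT2G29500, AT1G53540, AT5G48570 and Hop3 each had their highest hni9 value in the array numbered 2 at both supplies. Over the 17 heat-related genes measured, 10 small heat shock protein genes, 2 of the HSP70 class and 5 of the co-chaperone list, 9 were highest of their group in the number 2 array at both supplies in hni9, where 19.2% of all probe sets were. In WT 4 of the 17 were, where 9.9% of all probe sets were. The median deviation of the 17 from the mean of their group was 0.36 on the log2 scale in hni9 replicate 2 at high nitrogen and 0.27 in hni9 replicate 2 at low nitrogen, and between -0.31 and 0.07 in the other 10 arrays. The median over all probe sets was 0.020 and 0.042 in these 2 arrays. The pattern was noticed in the data before it was counted, and neither an allele nor a replicate effect was tested. Without both of these arrays the AT2G29500 hni9 difference was 1.38 at high and 1.60 at low nitrogen, against 1.56 and 1.94 with all arrays.

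**Figure D4:**
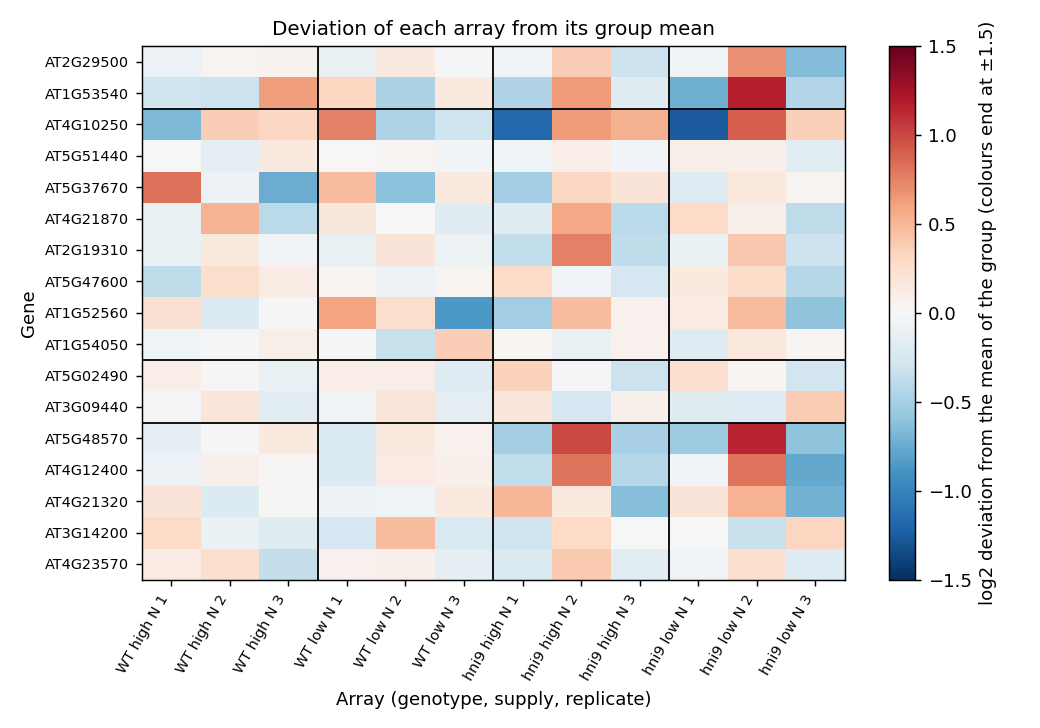
Deviation of each array from the mean of its group, in log2 units, for the 17 heat-related genes (rows) on the 12 arrays (columns). Horizontal lines separate the 2 listed genes, the 8 other small heat shock protein genes, 2 HSP70 genes and 5 co-chaperone or heat-induced genes. The columns of hni9 replicate 2 at high and low nitrogen have median deviations of 0.36 and 0.27.

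Among 5908 genes brighter than the median probe set, those with the profile most like AT2G29500 over the 12 arrays were ranked by Pearson correlation of log2 values. The values of AT2G29500 fall into a WT and an hni9 cluster, so the correlation within each genotype is given in place of a pooled one. The first was ICL (AT3G21720), the isocitrate lyase of the glyoxylate cycle, with 0.869 in the 6 WT arrays and 0.859 in the 6 hni9 arrays. Its mean intensities were 159 ± 15 and 93.3 ± 33.1 in WT at high and low nitrogen and 876 ± 148 and 484 ± 337 in hni9 (SD, n = 3). Next came AT5G11340, AT4G31310, AT5G59460, AT5G51740 and AT3G12050, with 0.388 to 0.846 in WT and 0.718 to 0.942 in hni9. AT5G59460 was 447 ± 39.4 and 388 ± 5.2 in WT and 670 ± 137 and 588 ± 122 in hni9, in the same order of supplies. For the mean of the standardised values of AT2G29500 and AT1G53540 the genes most alike were AT5G44090 and AT5G48570, the ROF2 gene described above. AT5G48570 had 0.833 in WT and 0.893 in hni9, and AT5G44090 had 0.913 and 0.851. The others were AT5G23710, AT5G58110, AT5G28150 and ATC (AT2G27550). These were picked as the highest of many correlations over few arrays and are a description, with no test.

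Array medians were 199 to 221. The signal of the GAPDH control at the 3′ end over that at the 5′ end, a measure of RNA integrity, was 1.31 to 1.35 in WT at high nitrogen, 0.921 to 1.19 in WT at low nitrogen, 1.03 to 1.25 in hni9 at high and 0.976 to 1.27 in hni9 at low nitrogen. It thus moved with the comparisons that use WT at high nitrogen, and its part in them was not tested. Of 12 green tissue markers 2 had a probe set, RCA at 144 to 1180 and SBPASE at 23.1 to 275, and both had their highest value in hni9 replicate 1 at low nitrogen. Within hni9 at high nitrogen both were highest in the number 2 array, with 144, 584 and 274 for RCA and 88, 98.7 and 94.5 for SBPASE in replicates 1, 2 and 3, and their part in the number 2 pattern was not tested. In all 6 comparisons 0 of the 2 passed (limma), with 0 at an unadjusted p under 0.05. Of 11 root markers 0 had a probe set of their own in the annotation used here, so the label of the tissue was not checked. In whole roots, a change in the RNA of each cell and a change in the share of cells that express a gene cannot be told apart.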

How the data were processed

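The deposited value of a probe set is a linear intensity. Trimming 2% of values at each end left a mean of 500 on every array, so the authors had scaled the arrays to a common target, as read from the values; the sources used here do not give the summarisation software. RNA was extracted with Trizol and labelled with biotin, per the labels. Of 22810 probe sets 64 controls were left out. Values were transformed as log2(intensity + 16), with 10.8% to 15.0% of an array's values under 16, and fitted with limma 3.58.1 in R 4.3.3 with 1 mean per group, no block and an intensity trend, after a check on simulated data. Benjamini-Hochberg adjustment ran over 22746 probe sets at 0.05. No filter on low values was applied, so both measured genes were tested. Probe sets were named through the platform annotation and RefSeq, with 13513 probe sets of 1 gene, 13436 of them matched to a locus. For 8730 of the probe sets tested the annotation named no gene. The files name no genome build, so no coordinates are given.

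The members and lists were chosen with earlier results of these data known. The named genes were the listed loci, up to 4 of each other list by moderated F statistic, and the 6 genes most alike to AT2G29500 and to the mean of the members. AT2G19310, ATHSP22.0, AT5G37670, AT4G21870 and AT3G14200, outside that rule, were named after their values were seen. Replicate numbers were not treated as pairs, since they are not stated to mark a shared day or culture. Deviations from the group means correlated at 0.022 to 0.15 in the 18 same-numbered pairs of arrays, and over 0.1 in 6. In 17 of 18 comparisons an array was closest to its own number, so a factor shared by number may be present. The main fit leaves it out, and a fit with a replicate block is given below. The number of arrays limits the precision, and p-values cover the spread between these arrays.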

Additional observations from a re-analysis of the deposited data

Results flagged for a closer look

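The nitrogen response of AT5G51440, the mitochondrial small heat shock protein gene, differed between the genotypes. The interaction was 1.03 ± 0.14 (limma, adjusted p = 0.00491), with a rise at low nitrogen of 1.51 in WT and 0.48 in hni9, and all 3 arrays of low nitrogen above all 3 of high nitrogen in each genotype. The interaction lost its call when the variance was fitted with no trend on intensity (0.0636) and with replicates 1 and 2 alone (0.0864).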

How the results depend on the processing

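Across 21 alternatives, 20 of them fixed at the start, the hni9 difference of AT2G29500, a description since the loci were selected on it, ranged from 1.38 to 1.74 at high nitrogen and from 1.60 to 2.27 at low nitrogen. The number of listed genes called for nitrogen in WT, and for nitrogen averaged over genotypes, was 0 to 1 when arrays were left out in turn, and 1 in each with both hni9 arrays numbered 2 left out, an alternative chosen after seeing the data. The nitrogen change of AT2G29500 in WT ranged from -0.71 to -0.58 (limma, adjusted p 0.0128 to 0.342). AT1G53540 passed in 0 of the nitrogen and interaction comparisons under any alternative in which it was tested (limma, lowest adjusted p = 0.277, for the interaction). It was not tested with the dimmest 40% left out. With the replicate block AT2G29500 had adjusted p = 0.0638 in WT and 0.0515 averaged over genotypes, and neither listed gene changed its call. Under the block Hsp70-2 in hni9 (0.0142), AT1G52560 averaged over genotypes (0.0486), SGT1A averaged over genotypes (0.0464) and in hni9 at high nitrogen (0.0143), and AT5G48570 in hni9 at low nitrogen (0.0173) gained a call, and 17 of 18 comparisons found an array closest to its own number in another group, a hint from the data and not from the design. The 114 gene and comparison pairs gave 2352 values under the alternatives. Among these values 21 calls were lost, 32 were gained and 0 called values changed sign, while 120 uncalled values did. The share of all probe sets called ranged from 1.82% to 10.8% for nitrogen in WT, 1.59% to 9.56% in hni9 and 4.4% to 15.8% averaged, 2.12% to 15.3% and 0.365% to 4.78% for hni9 at high and low nitrogen, and 0.0044% to 1.78% for the interaction. The lowest came with replicates 1 and 2 alone, and the highest with the dimmest 40% left out, except for the interaction, where it came with both hni9 arrays numbered 2 left out. Those settings have fewer arrays or fewer probe sets. Leaving out 1 array moved a share by over 1.5 times for WT replicates 1, 2 and 3 at high and 2 at low nitrogen in the WT comparison (3.42% to 3.79%), for hni9 replicate 1 at low nitrogen in hni9 (3.23%), for WT replicates 1 to 3 and hni9 replicate 1 at high nitrogen in hni9 against WT there (4.61% to 4.96%), for WT replicates 1 to 3 at low nitrogen there (0.822% to 1.06%), and in the interaction for the 6 WT arrays and hni9 replicate 1 at low nitrogen (0.295% to 0.4%) and for hni9 replicate 2 at high and low nitrogen (1.09% and 1.12%). With no intensity trend the shares were 3.5%, 2.84%, 4.08%, 0.686% and 0.0923% for WT, hni9, high nitrogen, low nitrogen and the interaction. Averaging several probe sets per gene was not run, since each named gene of the lists had 1.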
